A study of Rattus norvegicus with 30 samples.

Results

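The genes described here encode carriers that move amino acids across membranes of the cell. They were chosen as a list of 37 symbols from the SLC1, SLC3, SLC6, SLC7, SLC16, SLC25, SLC36, SLC38 and SLC43 families, by name and with no cut on a measured value, although earlier results of these data were known when the list was drawn up. Of the 37, 35 had a probe set with a single gene symbol on the array, and these are followed among 14506 measured genes. Slc38a10 and Slc6a20 were not found by symbol and are not analysed here. Each of the 35 genes was represented by 1 probe set.

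Total RNA came from primary cultures of rat inner medullary collecting duct (IMCD) cells, the epithelium of the last part of the kidney tubule. Osmolality is given in mosmol/kg. Of the 10 groups, 3 held cells kept throughout at 300, 600 or 900 mosmol/kg (steady 300, steady 600 and steady 900 below). A step up from 300 to 600 mosmol/kg was sampled at 3, 12, 24 and 48 h, and a step up from 600 to 900 mosmol/kg at 12 and 24 h. The last group held cells from 900 that had spent 24 h back at 300 mosmol/kg. There were 3 arrays in each group, 30 in all. The treatment label of all 30 samples lists the calcineurin inhibitor cyclosporin A at 5 µM, but no title does, so which cultures received it is not settled by the labels. Whether replicates were separate cultures or animals is not labelled, so p-values reflect only the scatter among these arrays, and that scatter may be technical. The study compared gene expression between osmolalities.

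Cells in hypertonic medium lose water and shrink. Over the following hours they take up or synthesise small uncharged solutes, and neutral amino acids imported by the sodium-coupled carriers of the SLC38 family are among those that accumulate first. Other carriers are exchangers, which import an amino acid only in return for another. In the SLC3 and SLC7 families a heavy chain (Slc3a1 or Slc3a2) carries a light chain to the membrane, and the light chain sets which amino acids are moved. Several carrier genes are targets of ATF4, the transcription factor that is translated when amino acids are scarce or the endoplasmic reticulum is stressed. In hypertonic cells the transcription factor NFAT5 binds tonicity elements in genes for osmolyte carriers and enzymes.

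Promoter sequence from RefSeq, assembly GRCr8, was available for 28 of the 35 genes as the 250 bases before and 50 bases after a gene start. The letters TGATGNAA, the core of the composite element to which C/EBP and ATF4 bind, were found on either strand in 3 of 28 genes (10.7%) and in 4.16% of 27457 genes in the table. The 3 genes were Slc1a4, Slc7a1 and Slc38a1. The letters TGGAAANN, which begin the tonicity element, were found in 9 of 28 genes (32.1%) and in 23.9% of all genes. The longer tonicity element consensus, which contains those letters and was added after the data had been seen, was found in Slc38a4 and Slc38a6, 2 of 28 genes (7.14%), against 6.49% of all genes. Slc38a4 rose most among the 35 genes after a step in osmolality, and at 12 h Slc1a4 and Slc7a1 differed between both upward steps more than any other gene but Slc6a14. These windows are shown for that reason, with Slc38a1 as the remaining holder of the C/EBP and ATF4 letters. Slc38a6, whose window is not shown, fell at 12 h after both upward steps, with log2 changes of -0.61 after 300 to 600 and -0.33 after 600 to 900. The capitals mark the match, and each line runs 5′ to 3′ along the strand of the gene.
Slc38a4: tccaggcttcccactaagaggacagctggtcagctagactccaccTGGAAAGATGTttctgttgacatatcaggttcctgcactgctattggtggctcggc
Slc1a4: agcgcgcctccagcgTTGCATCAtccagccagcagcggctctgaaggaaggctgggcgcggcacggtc
Slc7a1: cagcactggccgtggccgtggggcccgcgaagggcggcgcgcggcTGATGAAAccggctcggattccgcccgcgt
Slc38a1: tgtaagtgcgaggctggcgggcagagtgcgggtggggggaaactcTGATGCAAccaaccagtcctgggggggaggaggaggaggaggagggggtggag
The Slc38a4 window lies at chr7:130082220-130082320 on the minus strand, and the match shown runs from position -106 to -96, with -1 the base before the start. The same consensus was also matched after the start, at 5 to 15 and, on the opposite strand, at 6 to 16, which overlap each other and lie outside the printed window. The Slc1a4 window lies at chr14:98761745-98761812 on the minus strand, with its match on the opposite strand at -235 to -228. The Slc7a1 window lies at chr12:11664413-11664487 on the plus strand, with the match at -30 to -23. The Slc38a1 window lies at chr7:129681491-129681588 on the minus strand, with the match at -142 to -135. A match describes the letters in these windows and is no evidence that a factor binds there.

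Deposited values were log2 values, so a difference of 1 is a 2-fold difference. Values given below are log2 values of single arrays, in replicate order, or log2 changes ± standard error (SE). A change was called when its adjusted p from limma, taken over all 14506 genes, was under 0.05. All 30 arrays correlated best with an array of their own group. In the group measured 3 h after the step to 600, replicate 3 lay farther from the other arrays, with a median absolute difference of 0.205 and 0.198 against 0.122 between replicates 1 and 2. In the group measured 12 h after the step to 900, the array numbered 9 likewise differed from both others by 0.200 and 0.194. Leaving out that replicate 3 ended the 3 h calls of Slc7a6 (-0.14 in place of -0.25) and Slc38a6 (-0.13 in place of -0.25), and moved Slc38a7 from -0.34 to -0.53. Leaving out array 9 ended the call of Slc7a3 at 12 h after the step to 900 (-0.25 in place of -0.35) and gave calls for Slc36a1 (0.38 in place of 0.22) and Slc3a2 (-0.17 in place of -0.07). Other called values that this moved by over 1.5 times are given with the gene. The median SD within groups was 0.130 for the 35 genes and 0.133 for all genes.

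Markers of collecting duct cells and of other cell types were measured on the same arrays, and they differed between the groups. The mean over 5 epithelial markers lay between 10.8 and 11.4 on every array, but its members went opposite ways. From steady 300 to steady 900 Krt18 fell from 12.2 to 11.4 and Krt8 from 12.1 to 11.5. Krt19 rose from 9.55 to 10.6 and Epcam from 11.6 to 11.9. The mean over 8 markers of collecting duct principal cells was 5.98 ± 0.11 (SD, n = 3) in steady 300, 9.06 ± 0.23 in steady 600 and 10.3 ± 0.05 in steady 900, and of these markers the sodium channel subunit Scnn1g stayed between 4.62 and 5.05 in every group. The mean over 8 leukocyte markers fell from 8.91 ± 0.06 in steady 300 to 7.34 ± 0.02 in steady 600 and 6.75 ± 0.07 in steady 900, and that over 8 fibroblast markers was 8.85 ± 0.01, 8.21 ± 0.05 and 6.49 ± 0.02. The mean over 8 markers of the loop of Henle and proximal tubule was 5.31 ± 0.08, 6.38 ± 0.05 and 6.63 ± 0.04 in the 3 steady groups, with Umod between 4.25 and 4.32. That over 5 endothelial markers was 7.64 ± 0.02, 7.98 ± 0.03 and 8.04 ± 0.06. Against steady 300, 3 of these 5 were higher and 1 lower in steady 600 (13.7% and 13.4% of all genes). In steady 900, 2 were higher and 1 lower (20.2% and 22.3% of all genes). The mean over 4 intercalated cell markers was 5.78 ± 0.14, 4.86 ± 0.15 and 4.95 ± 0.07, and of these Slc26a4 was 9.32, 5.61 and 5.37. The fibroblast marker Lum was between 2.71 and 2.90 in every group. In such bulk samples fewer cells of a type and less RNA per cell cannot be told apart.

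**Figure D1:**
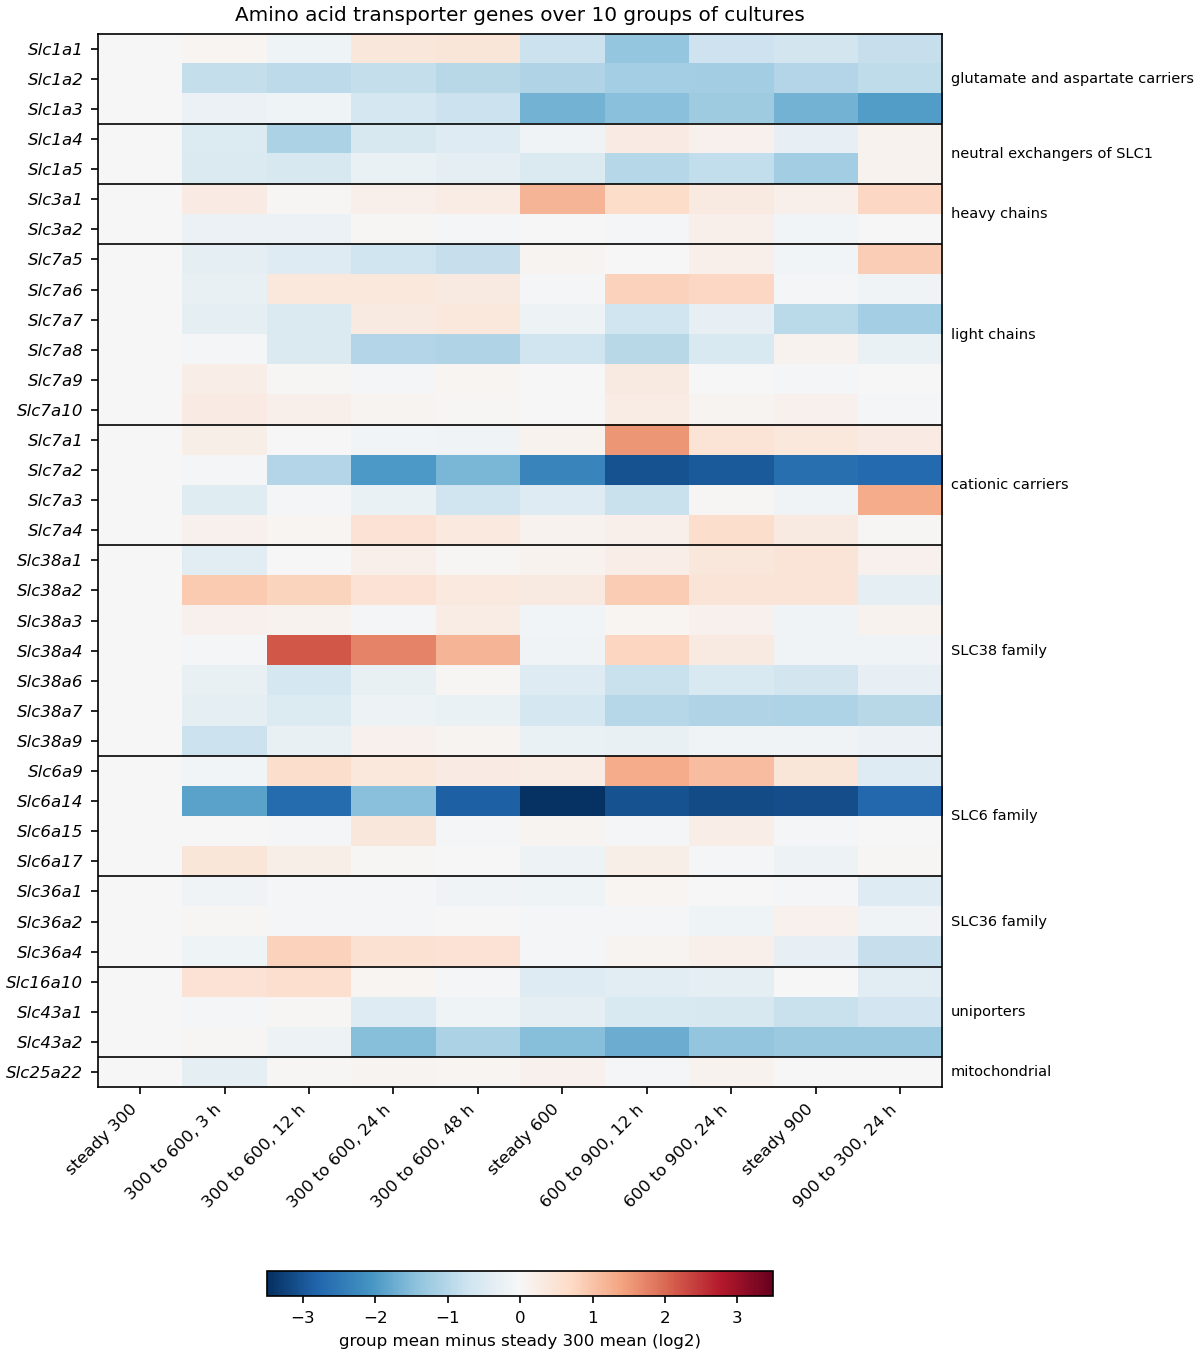
Difference of each group mean from the steady 300 mean (log2, colour) for the 35 amino acid transporter genes, ordered by role, over the 10 groups (n = 3 arrays each). Slc6a14 is lower in every other group, Slc7a2 in every other group but that at 3 h, and Slc38a4 is highest 12 h after the step from 300 to 600.

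Expression of nearly all the carriers varied over the series. The moderated F test over the 10 groups called 31 of 35 genes, against 73.7% of all genes. The 4 not called were Slc7a10, Slc38a3, Slc6a15 and Slc36a2. Over 13 comparisons between groups, 16 of the 35 genes changed at least 2-fold in at least 1 comparison, as did 17.2% of all genes. Of the 455 pairs of gene and comparison, 212 were called. In single comparisons 31.4% to 54.3% of the 35 genes were called, against 18.3% to 42.6% of all genes. Of the 212 calls, 165 stayed called under every alternative way of processing that gave the gene a value. All 40 changes of at least 2-fold did so too. The dim-gene filter gave Slc3a1 no value, and the mean of probe sets could not alter genes with 1 probe set. How many calls stayed was not counted for all genes.

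Between the steady cultures the carriers were more often lower than higher at the higher osmolality. In steady 600 against steady 300, 15 of 35 were called (42.9%, against 27.1% of all genes), 3 higher and 12 lower (13.7% and 13.4% of all genes), with changes of at least 2-fold in 1 higher and 5 lower (4.49% of all genes). In steady 900 against steady 300, 19 were called (54.3%, against 42.4%), 5 higher and 14 lower (20.2% and 22.3% of all genes), with changes of at least 2-fold in 7 lower (10.3% of all genes). In steady 900 against steady 600 mosmol/kg, 11 were called (31.4%, against 24.2%), 4 higher and 7 lower (11.3% and 12.9% of all genes), with changes of at least 2-fold in 0 (3.17% of all genes). After cyclic loess normalization or median centring the last split became 7 higher and 6 lower. With array weights 19 genes were called there.

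After the step from 300 to 600 mosmol/kg, 19 of 35 genes were called at 3 h (54.3%, against 41.6% of all genes), 5 higher and 14 lower (12.1% and 29.5% of all genes), with changes of at least 2-fold in 1 lower (1.93% of all genes). At 12 h 19 were called (54.3%, against 34.5%), 7 higher and 12 lower (11.9% and 22.6% of all genes), with changes of at least 2-fold in 1 higher and 3 lower (2.69% of all genes). At 24 h 18 were called (51.4%, against 22.3%), 8 higher and 10 lower (9.40% and 13% of all genes), with changes of at least 2-fold in 1 higher and 4 lower (2.98% of all genes). At 48 h 18 were again called (51.4%, against 21.6%), 8 higher and 10 lower (9.57% and 12.0% of all genes), with changes of at least 2-fold in 1 higher and 4 lower (2.65% of all genes). These comparisons share the 3 steady 300 arrays. Cells at 48 h against steady 600 had 18 called genes (51.4%, against 22.0%), 14 higher and 4 lower (9.47% and 12.5% of all genes), with changes of at least 2-fold in 2 higher (3.22% of all genes). The split at 3 h depended on scaling: it was 6 higher and 6 lower after quantile normalization, 7 and 6 after cyclic loess and 10 and 5 after median centring, which moved the median change of all genes from -0.04 to 0.13. At 12 h centring gave 10 and 10, with a median of all genes of 0.16 in place of -0.01. The 3 h count was 11 without replicate 1 of that group and 12 when only the 2 compared groups were fitted.

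After the step from 600 to 900 mosmol/kg, 16 of 35 genes were called at 12 h (45.7%, against 37.8% of all genes), 8 higher and 8 lower (12.5% and 25.3% of all genes), with changes of at least 2-fold in 2 higher (3.82% of all genes). At 24 h 12 were called (34.3%, against 25.9%), 8 higher and 4 lower (11.2% and 14.7% of all genes), with changes of at least 2-fold in 0 (2.59% of all genes). Cells 24 h at 900 against steady 900 had 11 called genes (31.4%, against 18.3%), 10 higher and 1 lower (9.47% and 8.83% of all genes), with changes of at least 2-fold in 0 (1.37% of all genes). That split was 10 and 3 after cyclic loess, and 17 genes were called when only these 2 groups were fitted. The 12 h split was 12 and 5 after quantile normalization, 12 and 8 after cyclic loess and 15 and 5 after median centring, which moved the median change of all genes from -0.03 to 0.12. Cells returned from 900 to 300 mosmol/kg for 24 h had 17 called genes against steady 900 (48.6%, against 37.7%), 7 higher and 10 lower (19.3% and 18.5% of all genes), with changes of at least 2-fold in 2 higher (4.09% of all genes). Against steady 300, 19 were called (54.3%, against 42.6%), 4 higher and 15 lower (20.4% and 22.2% of all genes), with changes of at least 2-fold in 1 higher and 5 lower (8.80% of all genes).

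Among the sodium-coupled carriers of the SLC38 family, which concentrate small neutral amino acids in the cell, Slc38a4 (SNAT4) showed the largest rise of any of the 35 genes. Its values in steady 300 were 9.53, 9.50 and 9.43, and at 3 h they were 9.41, 9.45 and 9.51. At 12 h they were 11.64, 11.67 and 11.70, above all arrays of the other groups. At 24 h they were 11.26, 11.18 and 11.21 and at 48 h 10.68, 10.64 and 10.72, lower than at 12 h without overlap. The log2 change from steady 300 was 2.19 ± 0.09 at 12 h (4.55-fold, limma adjusted p = 1.19e-16), 1.73 ± 0.09 at 24 h and 1.20 ± 0.09 at 48 h. At 3 h it was -0.03 ± 0.09 and not called, but 0.22 and called after cyclic loess normalization. Steady 600 cells, at 9.38, 9.37 and 9.33, and steady 900 cells, at 9.33, 9.42 and 9.35, lay just below all arrays of steady 300, and neither difference was called. Cells held at 600 for 48 h were still 1.32 ± 0.09 above steady 600 (2.50-fold, adjusted p = 3.69e-12).

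The step from 600 to 900 raised Slc38a4 again, but by less. Values were 10.05, 10.06 and 10.63 at 12 h and 9.81, 9.82 and 9.79 at 24 h, all above steady 600. The change was 0.89 ± 0.09 at 12 h and 0.44 ± 0.09 at 24 h. Without array 9, the highest of its group, the 12 h change was 0.69 (adjusted p = 4.15e-10). In returned cells Slc38a4 was 9.31, 9.40 and 9.34, and its change from steady 900 was not called.

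Slc38a2 (SNAT2), the carrier best known for amino acid uptake in shrunken cells, rose earlier. It stayed under 2-fold, so it was picked for description by array after its values had been seen. It was 11.67, 11.74 and 11.65 in steady 300, 12.52, 12.46 and 12.83 at 3 h, 12.43, 12.43 and 12.50 at 12 h, 12.22, 12.15 and 12.22 at 24 h and 12.07, 12.05 and 12.00 at 48 h. All arrays after the step lay above all arrays of steady 300. The change was 0.92 ± 0.08 at 3 h (1.89-fold, limma adjusted p = 1.77e-09; 0.80 without replicate 3) and 0.77, 0.51 and 0.35 at 12, 24 and 48 h. Unlike that of Slc38a4, its level also differed between steady cultures, by 0.30 ± 0.08 in steady 600 and 0.46 ± 0.08 in steady 900 against steady 300. At 12 h after the step to 900 it rose by 0.57 ± 0.08, from 12.02, 11.98 and 11.97 to 12.44, 12.48 and 12.77. On return to 300 it fell by 0.78 ± 0.08 to 11.36, 11.44 and 11.30, below every array of steady 300.

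**Figure D2:**
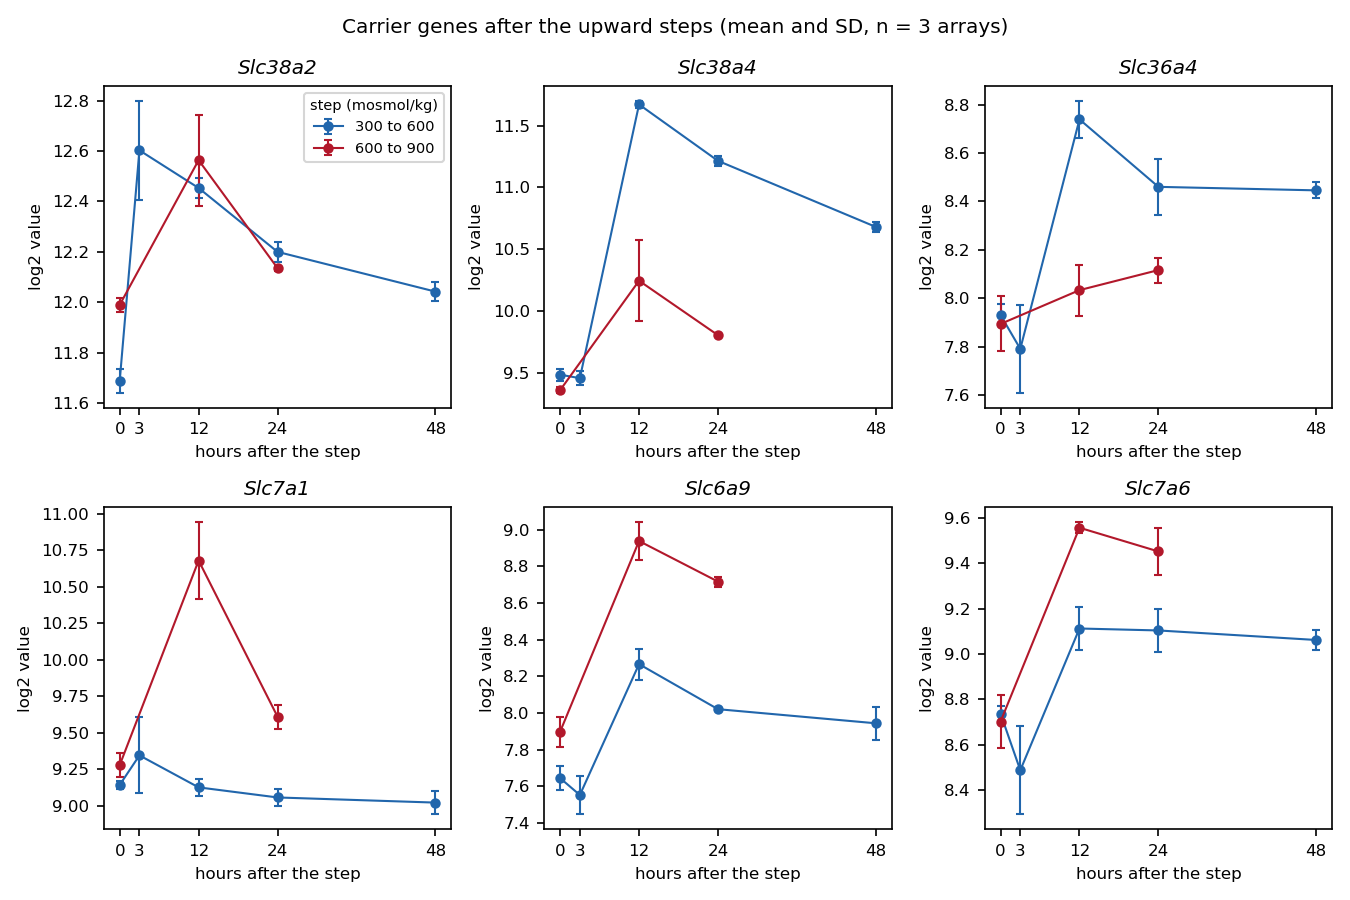
Mean log2 value and SD (n = 3 arrays) of 6 carrier genes against hours after the step from 300 to 600 (blue) or from 600 to 900 mosmol/kg (red), with the steady culture at 0 h. Slc38a2 is highest at 3 h and Slc38a4 and Slc36a4 at 12 h after the first step, whereas Slc7a1, Slc6a9 and Slc7a6 are highest 12 h after the second.

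The lysosomal members of the family did not follow these rises. Slc38a7, which exports glutamine from lysosomes, was 7.58, 7.65 and 7.66 in steady 300, 7.02, 7.04 and 6.99 in steady 600 and 6.54, 6.58 and 6.48 in steady 900. The 3 groups did not overlap, and the change from steady 300 to steady 900 was -1.09 ± 0.10 (2.13-fold, limma adjusted p = 5.32e-10). In returned cells it was 6.65, 6.84 and 6.51, still a change of -0.96 ± 0.10 against steady 300. Slc38a9, the lysosomal arginine sensor that signals to the growth kinase mTORC1, changed most at 3 h, from 8.04, 8.10 and 7.89 to 7.26, 7.15 and 7.36, a change of -0.76 ± 0.09. At 24 and 48 h its change from steady 300 was not called. Slc38a1, a carrier of glutamine and other neutral amino acids, rose by at most 0.46 ± 0.11 (steady 900 against steady 300), and its lowest change was -0.40 ± 0.11 at 3 h, or -0.64 without replicate 3. Slc38a6 fell by at most 0.65 ± 0.10 in the same comparison. Slc38a3 was called once, at 0.37 against steady 600, and not under every alternative.

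Among the SLC6 carriers, which couple uptake to sodium and chloride, Slc6a14 showed the largest change of all 35 genes. Slc6a14 encodes a carrier of neutral and cationic amino acids with broad specificity. Its values were 7.65, 8.04 and 7.49 in steady 300 and 4.15, 4.47 and 4.18 in steady 600. The change was -3.46 ± 0.17 (11-fold, limma adjusted p = 3.95e-16), and every other group also lay below steady 300 without overlap. The steady 600 mean of 4.27 is under 5.05, the level below which genes were taken as dim, where RMA compresses differences, so this fold is no exact value, nor is that of Slc1a3 below, at 4.95 in steady 600. It was 5.69, 6.20 and 5.69 at 3 h after the step to 600, 5.22, 4.77 and 5.12 at 12 h, 6.31, 6.07 and 6.40 at 24 h and 4.87, 4.90 and 4.82 at 48 h. The 24 h arrays lay above those at 12 and 48 h. In cells returned to 300 it was 5.11, 4.97 and 4.87, a change of 0.35 ± 0.17 from steady 900 that was not called, and of -2.74 ± 0.17 from steady 300.

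Slc6a9, the glycine carrier GlyT1, was higher at the higher osmolalities. It was 7.69, 7.67 and 7.57 in steady 300, 7.98, 7.82 and 7.90 in steady 600 and 8.10, 8.07 and 8.06 in steady 900, and it was 0.43 ± 0.08 higher in steady 900 than in steady 300. After the step from 600 to 900 it was 9.01, 8.99 and 8.82 at 12 h and 8.72, 8.74 and 8.69 at 24 h, above the arrays of all other groups. The changes were 1.04 ± 0.08 (2.06-fold, limma adjusted p = 6.06e-12) and 0.82 ± 0.08. After the step from 300 to 600 it rose by 0.62 ± 0.08 at 12 h, to 8.18, 8.34 and 8.28. On return to 300 it fell by 0.88 ± 0.08 from steady 900, to 7.11, 7.31 and 7.19, below steady 300. Slc6a17, a carrier of synaptic vesicles, changed most at 3 h, by 0.42 ± 0.07. Slc6a15 was called in none of the 13 comparisons by limma (1 at an unadjusted p under 0.05), and its group means lay between 3.76 and 4.21.

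**Figure D3:**
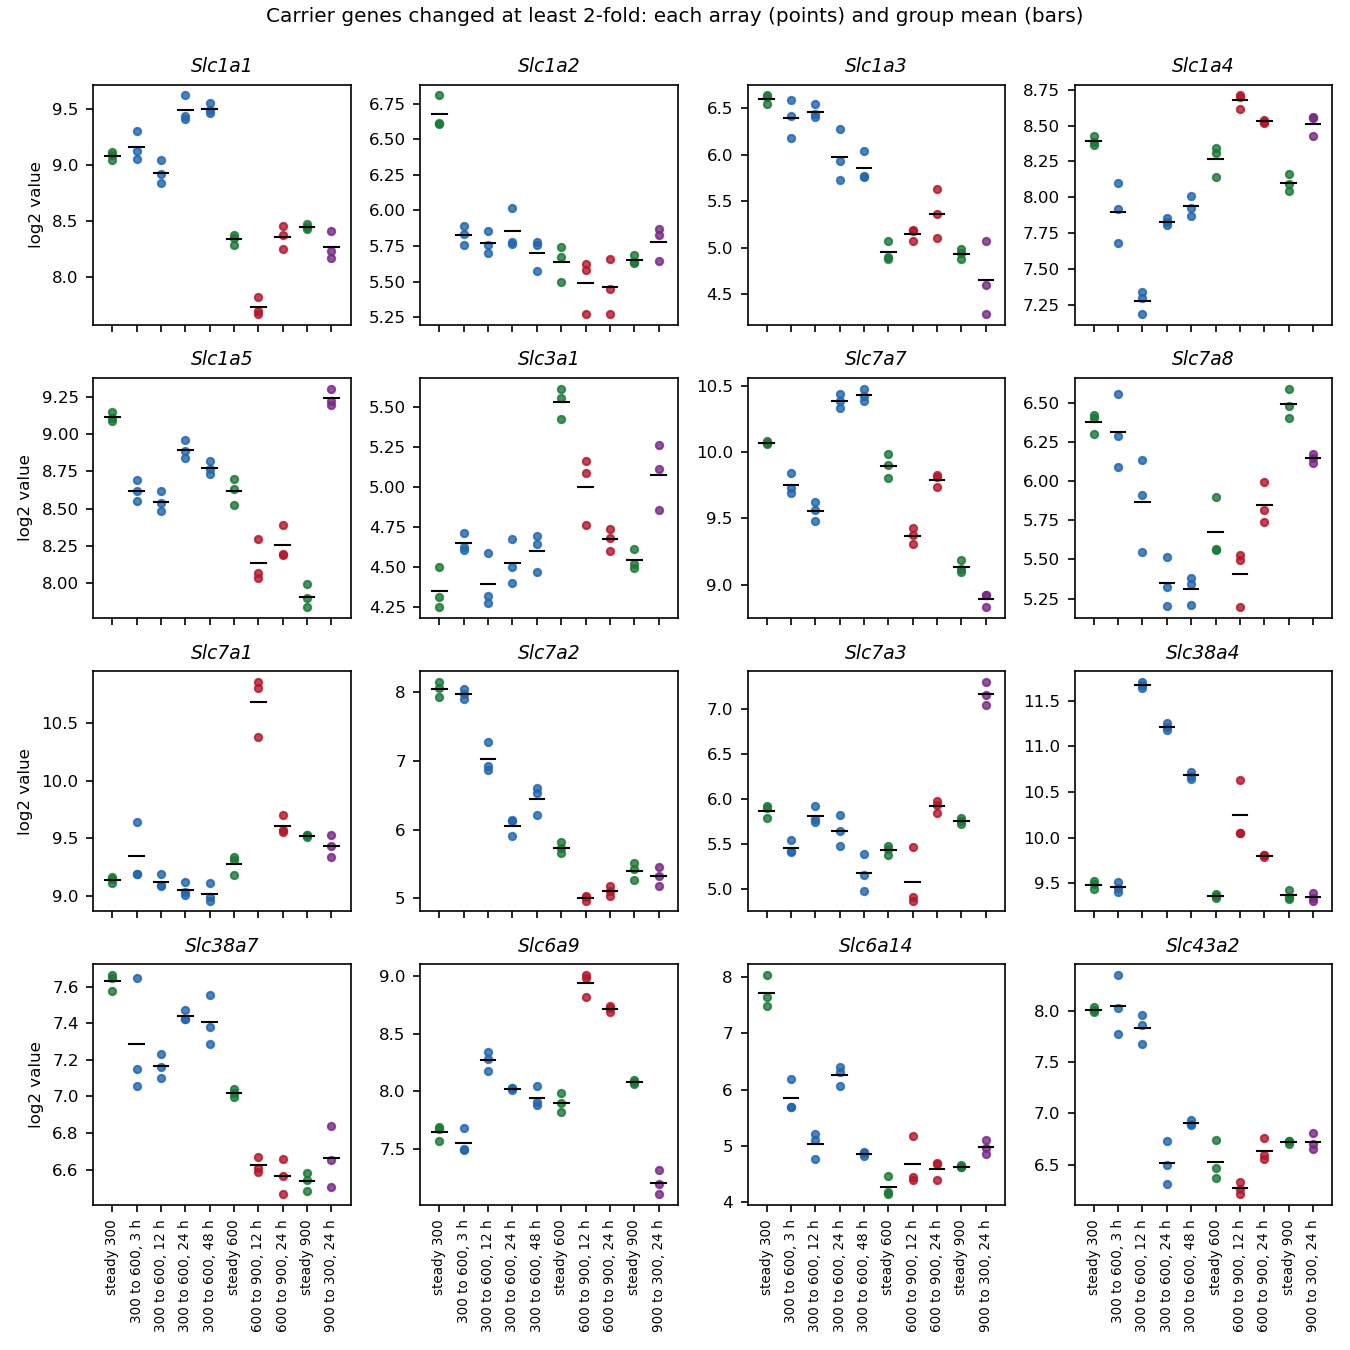
Log2 value on each array (points) and group mean (bars) over the 10 groups for the 16 genes that changed at least 2-fold in a comparison. Steady groups are green, the step to 600 blue, the step to 900 red and the return to 300 purple, and vertical scales differ between panels.

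The cationic carriers, which import arginine, lysine and ornithine, differed from each other in direction. Slc7a2 (CAT2) was 8.06, 8.15 and 7.93 in steady 300 and 7.90, 8.05 and 7.97 at 3 h after the step to 600, a difference of -0.08 ± 0.11 that was not called. It fell to 6.92, 6.87 and 7.27 at 12 h, to 6.12, 6.14 and 5.90 at 24 h and to 6.52, 6.22 and 6.60 at 48 h. In steady 600 it was 5.82, 5.66 and 5.73, a change of -2.31 ± 0.11 from steady 300 (4.97-fold, limma adjusted p = 1.04e-16). In steady 900 it was 5.42, 5.51 and 5.26, and in returned cells 5.18, 5.45 and 5.33, and 24 h after return its change against steady 300 was -2.73 ± 0.11. After the step from 600 to 900 it fell further, by 0.73 ± 0.11 at 12 h and 0.63 ± 0.11 at 24 h. Its means at those times, 5.00 and 5.10, lie close to the dim level of 5.05, so these falls are no exact values.

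Slc7a1 (CAT1), the most widely expressed cationic carrier, was not called after the first step on the deposited scale. At 3 h its change of 0.20 ± 0.11 became 0.41 after quantile normalization, 0.45 after cyclic loess and 0.37 after median centring, and was called under each. Without replicate 3 that change was 0.05 on the deposited scale and was not called. Slc7a1 was 9.12, 9.14 and 9.17 in steady 300 and 9.10, 9.20 and 9.08 at 12 h. Its highest value at any of the 4 times was 9.65, on replicate 3 at 3 h. After the second step it rose from 9.31, 9.18 and 9.34 in steady 600 to 10.81, 10.86 and 10.38 at 12 h. That change was 1.40 ± 0.11 (2.64-fold, limma adjusted p = 1.37e-11), and 1.55 without array 9, the lowest of its group. At 24 h it was 9.56, 9.70 and 9.57, a change of 0.33 ± 0.11 whose call was lost under an alternative. No array outside the group at 12 h after the step to 900 exceeded 9.70.

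Slc7a3 (CAT3) stood out in the returned cells, and no array of any other group exceeded 5.97. It was 5.79, 5.75 and 5.72 in steady 900, 7.30, 7.15 and 7.05 after 24 h at 300 and 5.79, 5.89 and 5.92 in steady 300. Return raised it by 1.41 ± 0.12 (2.66-fold, limma adjusted p = 8.32e-11), to 1.30 ± 0.12 above cells that had always been at 300. Its largest called decrease was -0.70 ± 0.12, at 48 h after the step to 600. Slc7a4, a relative whose transport role is unsettled, rose by at most 0.51 ± 0.09, at 24 h after the step to 900, and by 0.50 ± 0.09 at 24 h after the step to 600.

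Both exchangers of the SLC1 family were lower in steady 900 than in steady 300, and both rose on return. Slc1a5 (ASCT2), a glutamine exchanger, was 9.15, 9.09 and 9.11 in steady 300, 8.53, 8.63 and 8.70 in steady 600 and 7.89, 7.99 and 7.83 in steady 900. The change from steady 300 to steady 900 was -1.21 ± 0.08 (2.31-fold, limma adjusted p = 8.89e-14). After return to 300 it was 9.22, 9.31 and 9.20, a rise of 1.34 ± 0.08 (2.53-fold, adjusted p = 7.25e-14). These arrays lay just above all arrays of steady 300, but that difference was not called. Slc1a4 (ASCT1), which exchanges alanine, serine and cysteine, was 8.37, 8.42 and 8.38 in steady 300 and fell to 7.19, 7.30 and 7.35 at 12 h after the step to 600. That change of -1.11 ± 0.08 (2.16-fold, adjusted p = 1.19e-11) was followed by 7.83, 7.86 and 7.81 at 24 h. After the step from 600 to 900 it went the other way, from 8.34, 8.14 and 8.31 to 8.70, 8.71 and 8.62 at 12 h, a rise of 0.41 ± 0.08.

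The 3 carriers of glutamate and aspartate were each lower in steady 600 and steady 900 than in steady 300. Slc1a3 (GLAST) was 6.62, 6.64 and 6.54 in steady 300 and 4.90, 5.08 and 4.88 in steady 600, a change of -1.65 ± 0.15 (3.13-fold, limma adjusted p = 3.5e-10). In returned cells it was 4.60, 4.29 and 5.07, a change of -1.94 ± 0.15 from steady 300. At 3 and 12 h after the step to 600 no change was called, and at 24 and 48 h it had fallen by 0.62 ± 0.15 and 0.74 ± 0.15. Slc1a2 (GLT1) was 6.61, 6.81 and 6.61 in steady 300 and already 5.89, 5.76 and 5.83 at 3 h, a change of -0.85 ± 0.10, and in steady 600 it was 5.50, 5.67 and 5.75 (2.06-fold lower, adjusted p = 2.51e-09). All arrays from 3 h on, in every group but steady 300, lay at or below 6.01. Slc1a1 (EAAT3), the main epithelial glutamate carrier of the kidney, had a change of -0.75 ± 0.08 in steady 600 against steady 300 but was higher at 24 and 48 h after the step, by 0.41 ± 0.08 and 0.42 ± 0.08. Cells at 48 h, with 9.56, 9.49 and 9.47, were 1.17 ± 0.08 above steady 600 (2.24-fold, adjusted p = 2.61e-12), with 8.35, 8.38 and 8.29. After the step to 900 it fell by 0.61 ± 0.08 at 12 h, to 7.67, 7.70 and 7.82, and at 24 h no change was called.

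Of the heavy chains, Slc3a2 (CD98), the partner of most light chains listed here, varied little, with group means between 10.8 and 11.2. Its largest change was 0.28 ± 0.07, in cells 24 h at 900 against steady 900. Slc3a1 (rBAT), the partner of Slc7a9 in cystine uptake, was highest in steady 600. It was 4.25, 4.31 and 4.50 in steady 300, 5.56, 5.61 and 5.43 in steady 600 and 4.61, 4.50 and 4.52 in steady 900. The rise to steady 600 was 1.18 ± 0.11 (2.26-fold, limma adjusted p = 5.7e-10) and the change from there to steady 900 was -0.99 ± 0.11. Slc7a9 itself was called once, at 0.32, and that call was lost under an alternative. The steady 300 mean of Slc3a1, 4.35, is also under the dim level of 5.05, so its 2.26-fold rise is no exact value. In steady 600 against steady 300, 4 of 8 markers of the loop of Henle and proximal tubule were higher and 0 lower by limma (also 4 and 0 at an unadjusted p under 0.05). Among all genes 13.7% were higher and 13.4% lower. The part of these markers in the rise of Slc3a1 was not tested. At 48 h after the step to 600 Slc3a1 was 4.69, 4.47 and 4.65 and had not reached the steady 600 level.

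Of the light chains, Slc7a7 and Slc7a6 exchange cationic for neutral amino acids, and Slc7a5 and Slc7a8 carry large neutral ones. Slc7a7 (y+LAT1) was 10.06, 10.09 and 10.07 in steady 300, 9.09, 9.18 and 9.12 in steady 900 and 8.83, 8.92 and 8.92 in returned cells, a change of -1.18 ± 0.07 from steady 300 (2.27-fold, limma adjusted p = 8.34e-15). After the step to 600 it fell by 0.52 ± 0.07 at 12 h and then rose above steady 300, by 0.32 ± 0.07 at 24 h and 0.36 ± 0.07 at 48 h. Slc7a8 (LAT2) was 6.42, 6.40 and 6.30 in steady 300 and 5.38, 5.34 and 5.21 at 48 h, a change of -1.06 ± 0.13 (2.09-fold, adjusted p = 1.61e-07). It was lower in steady 600, at 5.90, 5.57 and 5.56, than in either other steady culture, and no change was called between steady 900, at 6.40, 6.59 and 6.48, and steady 300.

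Slc7a5 and Slc7a6 stayed under 2-fold and were picked for description by array after their values had been seen. Slc7a5 (LAT1), an essential amino acid exchanger, was 8.59, 8.50 and 8.44 in steady 300 and 7.66, 7.80 and 7.68 at 48 h after the step, a change of -0.80 ± 0.11. Returned cells stood highest, at 9.42, 9.36 and 9.31, 0.96 ± 0.11 above steady 900 (limma adjusted p = 3.93e-08) and 0.86 ± 0.11 above steady 300. Slc7a6 (y+LAT2) rose from 8.59, 8.82 and 8.70 in steady 600 to 9.53, 9.56 and 9.58 at 12 h and 9.54, 9.34 and 9.48 at 24 h after the step to 900. These rises of 0.85 ± 0.09 and 0.75 ± 0.09 exceeded the 0.38 ± 0.09 and 0.37 ± 0.09 after the step to 600, and steady 900 cells, at 8.66, 8.78 and 8.64, overlapped steady 600. Slc7a10 was called only at 3 h, at 0.30, and lost that call under an alternative.

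The facilitated carriers, which move amino acids down their gradient, included Slc43a2 (LAT4), a carrier of essential neutral amino acids. It was 8.01, 8.03 and 7.99 in steady 300 and 7.67, 7.86 and 7.95 at 12 h, with no called change, but 6.49, 6.73 and 6.31 at 24 h. The change at 24 h was -1.50 ± 0.11 (2.82-fold, limma adjusted p = 1.94e-11), beside -1.49 ± 0.11 in steady 600, where it was 6.74, 6.37 and 6.46. In returned cells it was 6.70, 6.81 and 6.65. Slc43a1 (LAT3) fell by at most 0.78 ± 0.13, in steady 900 against steady 300. Slc16a10 (TAT1), the carrier of aromatic amino acids, was higher at 3 and 12 h, by 0.51 ± 0.11 and 0.58 ± 0.11, and lower in steady 600, at -0.44 ± 0.11.

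Of the SLC36 carriers, Slc36a4 (PAT4) was, like Slc38a4, highest at 12 h after the first step, and it was picked for description after its values had been seen. It was 7.96, 7.95 and 7.88 in steady 300 and 8.66, 8.82 and 8.74 at 12 h, a rise of 0.81 ± 0.09 (limma adjusted p = 2.74e-08), followed by 0.53 ± 0.09 at 24 h and 0.52 ± 0.09 at 48 h. No change was called after the step to 900. In returned cells it was 7.12, 7.25 and 7.02, a change of -0.80 ± 0.09 from steady 300. Slc36a1 (PAT1), which sits on lysosomes, fell on return by 0.40 ± 0.10. Slc36a2 was called once, at -0.27 on return, and lost that call under an alternative. Slc25a22, the mitochondrial glutamate carrier, was called once, at -0.32 at 3 h (-0.49 without replicate 3), and lost that call too.

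The fall of several carriers from steady 300 went along with lower leukocyte and fibroblast markers, and the times at which they fell differ. At 3 h after the step to 600, 2 of 8 leukocyte markers were lower and 0 higher by limma (4 and 1 at an unadjusted p under 0.05). Of 8 fibroblast markers 2 were lower and 1 higher, beside 29.5% of all genes lower and 12.1% higher. The change of Slc6a14 at that time was -1.86 ± 0.17. At 12 h, 0 of 8 leukocyte markers were called by limma (1 at an unadjusted p under 0.05, and 1 higher after quantile normalization or centring). Their mean was 8.90 ± 0.21 against 8.91 ± 0.06 in steady 300. Of 8 fibroblast markers 5 were lower and 0 higher (22.6% and 11.9% of all genes). At that time the change was -2.69 ± 0.17 for Slc6a14 and -1.03 ± 0.11 for Slc7a2. At 24 h 5 of 8 leukocyte markers were lower and 0 higher, and their mean was 7.67 ± 0.07. Of 8 fibroblast markers 6 were lower and 0 higher, with a mean of 7.71 ± 0.06, beside 13% of all genes lower and 9.40% higher. Slc43a2 and Slc1a3 were first called lower at that time. In steady 600 against steady 300, 7 of 8 leukocyte markers were lower, and of 8 fibroblast markers 5 were lower and 2 higher. Of 8 principal cell markers 7 were higher. Among all genes 13.4% were lower and 13.7% higher in that comparison. Slc7a7 had another course, with a mean of 10.07 in steady 300, 9.56 at 12 h, 10.39 at 24 h and 10.43 at 48 h. Its mean in steady 600 was 9.90, and that change from steady 300 was not called (limma adjusted p = 0.0565), but it was called lower in 6 of 15 alternative fits. In returned cells 8 of 8 leukocyte markers were lower than in steady 300 and their mean was 5.95 ± 0.04. There 7 of 8 fibroblast markers were lower and 0 higher (22.2% and 20.4% of all genes), with a mean of 6.44 ± 0.07. The part of these markers in the falls of Slc6a14, Slc7a2, Slc43a2, Slc1a3 and Slc7a7, at these times, between steady cultures and after return, was not tested.

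**Figure D4:**
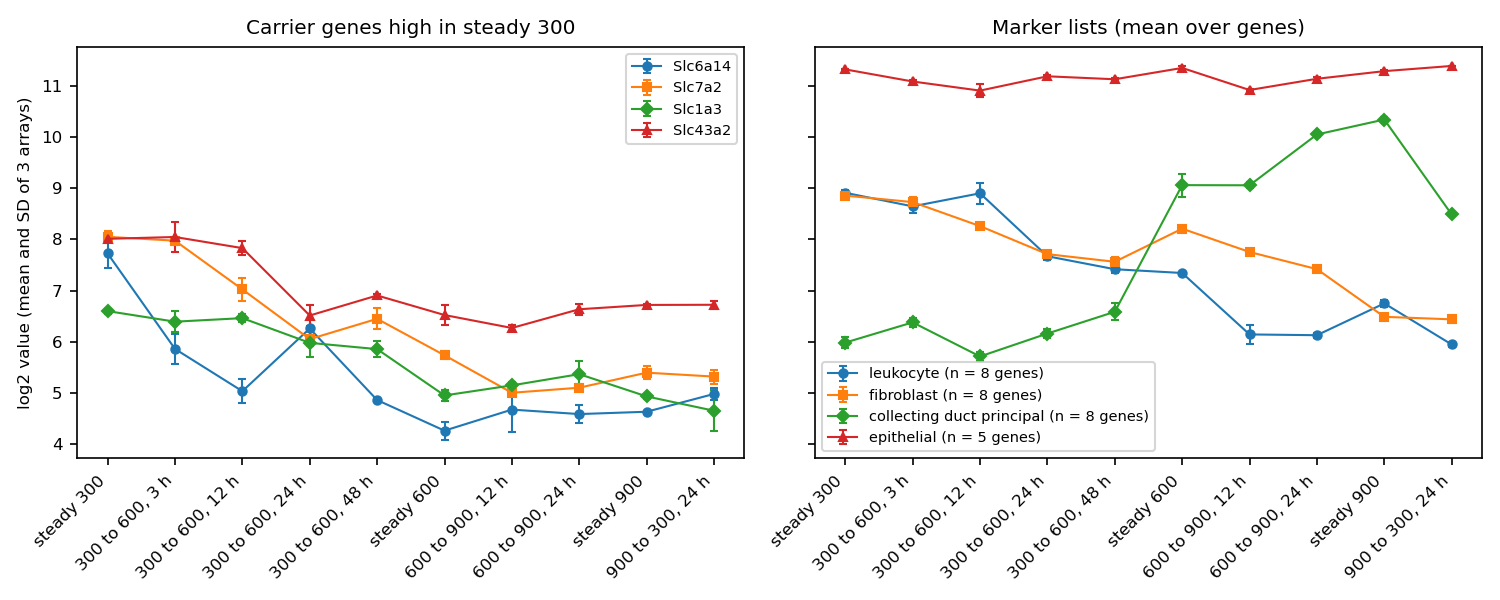
Left, mean log2 value and SD (n = 3 arrays) of 4 carrier genes that were high in steady 300; right, mean over the genes of 4 marker lists and its SD over 3 arrays, in the same groups; lines join groups only to guide the eye. Slc6a14 is lower at 3 and 12 h, when the leukocyte mean is 8.64 and 8.90 and the fibroblast mean 8.73 and 8.26. Slc43a2 drops at 24 h, when the leukocyte mean is 7.67 and the fibroblast mean 7.71.

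The same carriers often changed unequally after both upward steps. The difference between the change after 600 to 900 and the change after 300 to 600 was tested in the same limma fit and was called for 11 of 35 genes at 12 h (13.4% of all genes were called) and for 16 at 24 h (12.9%). Slc1a4 fell after the first step and rose after the second, with a difference of 1.52 ± 0.12 at 12 h (adjusted p = 1.89e-10). Slc7a1 rose at 12 h after the second step and had no called change at 12 h after the first, with a difference of 1.42 ± 0.15 (adjusted p = 6.22e-08). Slc38a4 rose in both but less in the second, with a difference of -1.30 ± 0.13 (adjusted p = 3.1e-08). Slc6a14 differed by 3.10 ± 0.24, and it was already at 4.15 to 4.47 before the second step, near its lowest. At 24 h Slc43a2 differed by 1.61 ± 0.16, Slc7a2 by 1.36 ± 0.15 and Slc7a8 by 1.20 ± 0.18.

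**Figure D5:**
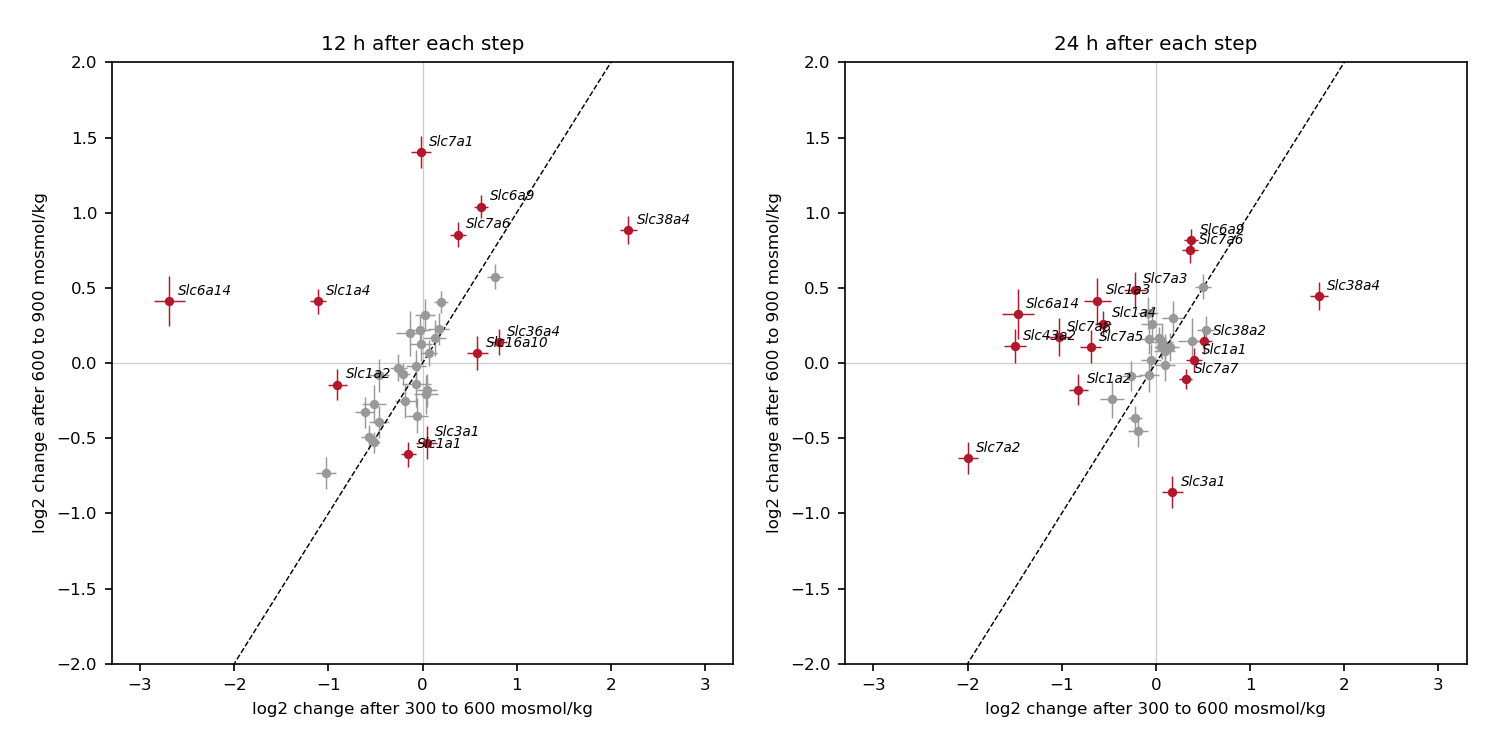
Log2 change after the step from 600 to 900 mosmol/kg against that after the step from 300 to 600 for the 35 genes, at 12 h (left) and 24 h (right), with the SE of each as bars. Red points with names have unequal changes by limma at adjusted p under 0.05, and the dashed line marks equal changes; Slc1a4, Slc7a1 and Slc6a14 lie far above it at 12 h and Slc38a4 below it.

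Genes that respond to amino acid supply and to ATF4 were counted in each comparison, and the difference between the steps was not tested for them. Of 24 measured genes on that list, 3 were higher and 11 lower at 12 h after 300 to 600 (11.9% and 22.6% of all genes), and 3 higher and 16 lower at 24 h (9.40% and 13%). After 600 to 900, 13 were higher and 3 lower at 12 h (12.5% and 25.3%), and 14 higher and 3 lower at 24 h (11.2% and 14.7%). The median change over the list was -0.25 and -0.36 after the first step and 0.25 and 0.38 after the second, against medians of all genes between -0.03 and 0.01. The list's direction at these times kept its sign under every scaling tried. Psat1, an enzyme of serine synthesis, fell by 0.64 ± 0.11 at 12 h after the first step and rose by 0.30 ± 0.11 after the second. The SD of Psat1 at 12 h after the second step was 0.34, larger than that rise. Atf3 had a lower mean at 12 h after both steps, at 8.78 against 8.93 in steady 300 and 8.19 against 8.35 in steady 600. Nupr1, a stress-induced transcriptional regulator, rose after both, by 2.12 ± 0.07 and 1.93 ± 0.07 at 12 h. On return to 300, 12 of the 24 were higher and 4 lower (19.3% and 18.5% of all genes).

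The aminoacyl-tRNA synthetases, which load amino acids onto tRNA, were lower in the first hours. Of 19 measured genes, 1 was higher and 13 lower at 3 h after the step to 600 (12.1% and 29.5% of all genes), and the same counts held at 12 h (11.9% and 22.6%). Scaling changed this to 2 to 3 higher and 6 to 10 lower at 3 h and to 1 higher and 6 to 12 lower at 12 h. Yars1, the tyrosine enzyme, fell by 0.57 ± 0.06 at 12 h. On return to 300, 8 were higher and 0 lower by limma (10 and 0 at an unadjusted p under 0.05; 19.3% and 18.5% of all genes were called), and Yars1 rose by 0.48 ± 0.06. At 12 h after the step to 900, 2 were higher and 8 lower (12.5% and 25.3% of all genes), but 6 to 7 higher and 5 to 6 lower under other scalings.

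In the list of mTORC1 and lysosomal amino acid sensing, 1 of 22 genes was higher and 11 lower on return to 300 (19.3% and 18.5% of all genes), and 0 higher and 11 lower under 3 other scalings. Sesn1, a leucine-responsive inhibitor of mTORC1, fell by 1.13 ± 0.07 on return and was 1.34 ± 0.07 higher in steady 900 than in steady 300. Of 21 enzymes of glutamine, glutamate, proline and glycine metabolism, 0 were higher and 10 lower by limma at 12 h after the step to 600 (1 and 13 at an unadjusted p under 0.05; 11.9% and 22.6% of all genes were called). Ass1, which makes the arginine precursor argininosuccinate, was lower by 2.26 ± 0.12 in steady 600 than in steady 300, and Arg2, which cleaves arginine, was 1.56 ± 0.11 higher. Among 24 other amino acid, peptide and osmolyte carriers, 6 were higher and 4 lower at 12 h (11.9% and 22.6% of all genes), or 10 and 3 after median centring. The inositol carrier Slc5a3 rose by 2.37 ± 0.09 at 3 h, and the taurine carrier Slc6a6 did not change by limma at 3 h (-0.07 ± 0.06) and rose by 0.58 ± 0.06 at 12 h, alongside Slc38a4.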

How the data were processed

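RNA of primary rat IMCD cells was measured on 30 whole-transcript arrays, 1 per sample. The deposited values are log2 values that the authors made with RMA (robust multi-array averaging), as listed per the submitters' processing notes. No source used here gives its version or settings. RMA subtracts background and compresses the dimmest and brightest values. The 29170 probe sets were named from the platform annotation: 15310 had 1 symbol, 323 several and 13537 no gene listed. Each gene was taken from its single-symbol probe set with the highest mean, giving 14506 genes.

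Groups were taken from the sample titles. limma 3.58.1 in R 4.3.3 fitted 1 mean per group over all 30 arrays (lmFit, eBayes), with Benjamini-Hochberg adjustment over the 14506 genes and a threshold of 0.05. The fit was tested on simulated data. With 3 arrays per group, their number limits the precision. Genes changed at least 2-fold were described array by array, and the others by range and largest change unless stated. Up to 3 genes per pathway list, those with the smallest F test p, were named, with Slc5a3 and Slc6a6. Alternatives were other scalings, a dim-gene filter, array weights, a robust trend, the mean of probe sets, the compared arrays alone, a replicate block and leaving out each array. The members, lists and rules were chosen with earlier results of these data known.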

Additional observations from a re-analysis of the deposited data

Results flagged for a closer look

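The results below stand apart because the same genes changed unequally after both upward steps, by the test of the difference itself in the limma fit (adjusted p under 0.05). Each value is the log2 change after 600 to 900 mosmol/kg minus the log2 change after 300 to 600 mosmol/kg at the same hour, with n = 3 arrays in each of the 4 groups.

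At 12 h the difference was negative for 5 genes. It was -1.30 for Slc38a4, -0.67 for Slc36a4, -0.57 for Slc3a1, -0.52 for Slc16a10 and -0.46 for Slc1a1. It was positive for 6 genes, at 0.42 for Slc6a9, 0.48 for Slc7a6, 0.76 for Slc1a2, 1.42 for Slc7a1, 1.52 for Slc1a4 and 3.10 for Slc6a14. The value for Slc3a1 was not past the threshold after quantile normalization (-0.45, adjusted p = 0.0572), and the filter on dim genes left it out. The value for Slc16a10 was not past the threshold without array 9 of the group at 900 (-0.43, adjusted p = 0.0685), nor in 7 other fits that left out 1 array.

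At 24 h the difference was negative for 5 genes, at -1.29 for Slc38a4, -1.03 for Slc3a1, -0.42 for Slc7a7, -0.38 for Slc1a1 and -0.37 for Slc38a2. It was positive for 11 genes. For the glutamate carriers and exchangers it was 0.65 for Slc1a2, 1.04 for Slc1a3 and 0.82 for Slc1a4. For the light chains and cationic carriers it was 0.38 for Slc7a6, 0.80 for Slc7a5, 1.20 for Slc7a8, 1.36 for Slc7a2 and 0.71 for Slc7a3. For the remaining carriers it was 0.44 for Slc6a9, 1.79 for Slc6a14 and 1.61 for Slc43a2. The small values of Slc1a1, Slc7a6 and Slc38a2 lost their call in 4, 8 and 10 of the fits that left out 1 array. Before the second step Slc6a14, Slc7a2, Slc7a3, Slc7a8, Slc43a2, Slc1a2 and Slc1a3 were already lower than before the first. So was Slc1a1, whose difference was negative, at a mean of 8.34 against 9.09. Higher before the second step were Slc3a1 (5.53 against 4.35), Slc38a2 (11.99 against 11.69) and Slc6a9 (7.90 against 7.64).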

How the results depend on the processing

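Of the counts of changed genes, 3 moved by over 1.5 times under an alternative. In steady 900 against steady 600, array weights gave 19 in place of 11 (8 to 9 when 1 array was left out). At 3 h after the step to 600, quantile normalization gave 12 and the compared arrays alone 12 in place of 19 (11 to 17 when 1 array was left out, lowest without replicate 1 of the 3 h group). In cells 24 h at 900 against steady 900, the compared arrays alone gave 17 in place of 11 (9 to 12). The other counts stayed within 1.5 times under every alternative run. Of single values called in either fit, the sign turned in 4, all after cyclic loess normalization (values called in neither fit were not counted): at 3 h Slc3a2 became 0.0275 (adjusted p = 0.743), Slc7a6 0.0018 (0.991) and Slc38a4 0.22 (0.0185), and at 12 h after the step to 900 Slc3a2 became 0.1389 (0.046). The replicate block, with the number as a term, gave counts of 15, 11, 19, 20, 19, 18, 18, 20, 17, 11, 11, 16 and 19 over the 13 comparisons. Same-numbered samples hardly deviated together (114 pairs, median correlation 0.0118, highest 0.238), against a median of -0.00837 for samples of other numbers. What the numbers stand for is not labelled, so this does not settle whether they pair the samples. With the dim-gene filter 5 genes (Slc3a1, Slc7a9, Slc7a10, Slc6a15, Slc36a2) get no value. The causes were not tested.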
